A study of Homo sapiens with 20 samples.

Results

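MII cells that received siRNA against beta-catenin together with siRNA against TAZ (the sibcat/siTAZ group, 4 arrays) were set against MII cells that received control siRNA against GFP (the siGFP group, 4 arrays). These 8 arrays were chosen by their titles from the 20 arrays of the series, and all 19775 named genes were compared. MII, also called MCF10-T1k, is a RAS-transformed human mammary epithelial cell line derived from MCF10A. The other groups, of 4 arrays each, received siRNA against beta-catenin alone (sibcat), against APC and TAZ (siAPC/siTAZ) or against APC alone (siAPC). All cells carried the activated RAS of the line, were grown with insulin, EGF, hydrocortisone and cholera toxin, were transfected by lipofection and were otherwise untreated. No group received TAZ siRNA alone, so a difference between sibcat/siTAZ and siGFP cannot be divided here between TAZ loss by itself and the combination. The labels give neither siRNA sequences nor doses, and the sibcat/siTAZ cells received siRNA against 2 genes where the siGFP cells received a control siRNA. The labels call the 4 samples of a group biological replicates A to D, and nothing in them says that these were separate cultures. The p-values therefore measure the spread between these samples, which may be technical.

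Beta-catenin, the product of CTNNB1, links cadherins to the actin cytoskeleton and, when it is not destroyed by a complex of APC, axin, CK1 and GSK3, enters the nucleus and activates genes with TCF/LEF factors. TAZ, the product of WWTR1, and its paralogue YAP are coactivators of the TEAD factors and are held back by the Hippo kinases LATS1 and LATS2. TAZ has also been described as a protein that is destroyed by the beta-catenin destruction complex and that accumulates with Wnt signalling, and the series title places TAZ as such a mediator. In mammary epithelium, YAP and TAZ are known for their part in growth, in stem cell properties and in the transition to a mesenchymal state.

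Each array gave a log2 RMA signal per gene (RMA corrects background, normalizes the arrays to a common distribution and summarises the probes of a set). Array medians lay between 5.07 and 5.11, and replicates of a group correlated at 0.9964 or more. The values carry no detection call, so levels below these medians are weak signals and differences that reach into them are compressed. At a limma adjusted p under 0.05, 8887 of 19775 genes (44.9%) differed between sibcat/siTAZ and siGFP, 5023 (25.4%) of them higher and 3864 (19.5%) lower. Changes of at least 2-fold were fewer, with 280 genes (1.42%) higher and 446 (2.26%) lower. The smallest difference that passed was 0.08 on the log2 scale, so counts of called genes include many small changes, and the median over all genes was -0.01. A share of called members near these percentages is what the genes on the array show in general. In these bulk samples fewer cells of a kind and less RNA per cell cannot be told apart. The 3' minus 5' signal of ACTB, a sign of RNA quality, was 1.98, 2.12, 2.03 and 2.02 on the sibcat/siTAZ arrays, against 1.80, 1.92, 1.81 and 1.78 on the siGFP arrays. For GAPDH it was 0.20, 0.15, 0.17 and 0.21 on the sibcat/siTAZ arrays, against 0.09, 0.09, 0.10 and 0.09 on the siGFP arrays. The arrays of the groups did not overlap for either gene. Both were higher in sibcat/siTAZ, by 0.21 and 0.09 (two-sided exact permutation test, adjusted p = 0.0286, the smallest this design allows), and their part in the results below was not tested. With the middle in place of the 5' probe set neither difference passed (0.08 each). Without any 1 array the differences were 0.18 to 0.24 for ACTB and 0.08 to 0.10 for GAPDH, and the adjusted exact permutation p was 0.0571 without sibcat/siTAZ replicate B, C or D and 0.0286 otherwise.

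**Figure D1:**
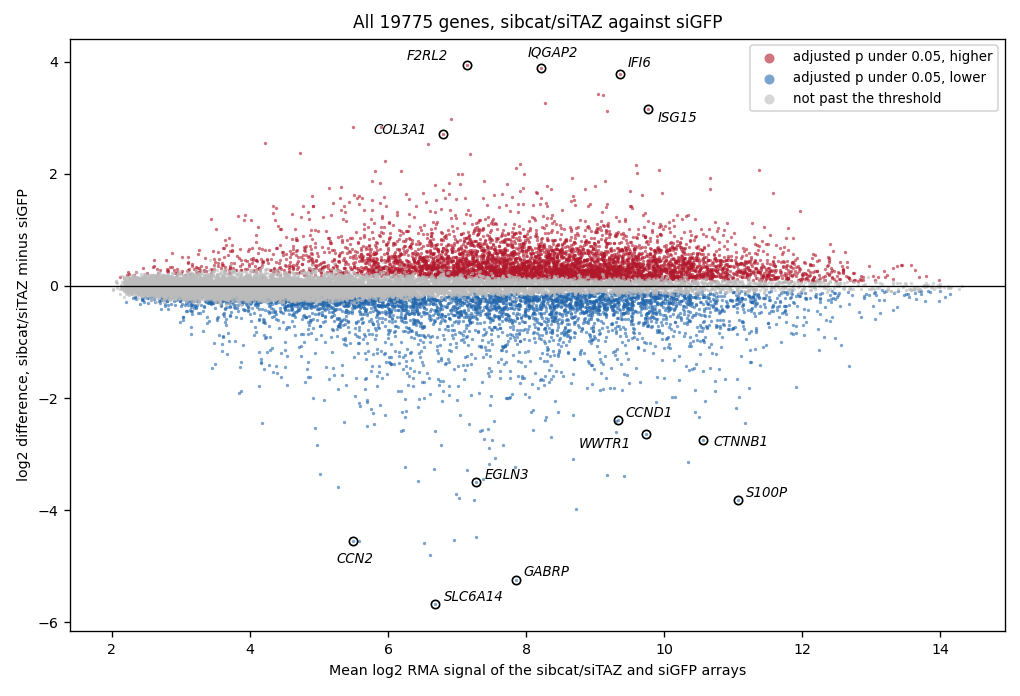
Each point is 1 of the 19775 genes, with the mean log2 RMA signal of the sibcat/siTAZ and siGFP arrays on the x axis and the log2 difference, sibcat/siTAZ minus siGFP, on the y axis. The lower tail reaches -5.67 (SLC6A14) and -5.24 (GABRP), and the upper tail ends at 3.93 (F2RL2) and 3.88 (IQGAP2).

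Both targeted transcripts were low in sibcat/siTAZ cells. CTNNB1 read 9.12, 9.27, 9.19 and 9.20 on the sibcat/siTAZ arrays, against 12.02, 11.94, 11.89 and 11.90 on the siGFP arrays. The groups were far apart, with a log2 difference of -2.74 (SE 0.05, adjusted p = 5.6e-19), which is 6.69-fold lower. Of its 3 probe sets, a second fell by 2.60 and the dimmest rose by 0.36, so the size refers to the brightest. WWTR1 read 8.33, 8.42, 8.40 and 8.49 on the sibcat/siTAZ arrays, against 11.20, 11.10 and 10.92 on the siGFP arrays of replicates A, B and D, with C between B and D. It had a difference of -2.65 (SE 0.05, adjusted p = 4.2e-18), and all 3 of its probe sets fell. The CTNNB1 level was also lower than with beta-catenin siRNA alone, at 9.20 ± 0.06 on sibcat/siTAZ arrays and 10.60 ± 0.07 on sibcat arrays (SD, n = 4 each), and that difference was -1.41 (SE 0.05, adjusted p = 1.5e-14). WWTR1 was higher than after siAPC/siTAZ, by 0.43 (SE 0.05, adjusted p = 1.1e-06). APC, whose product scaffolds the destruction complex, read 8.36, 8.49, 8.36 and 8.41 on the sibcat/siTAZ arrays, against 8.25, 8.29, 8.21 and 8.15 on the siGFP arrays, and the difference of 0.18 (SE 0.05, adjusted p = 0.00859) was small.

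**Figure D2:**
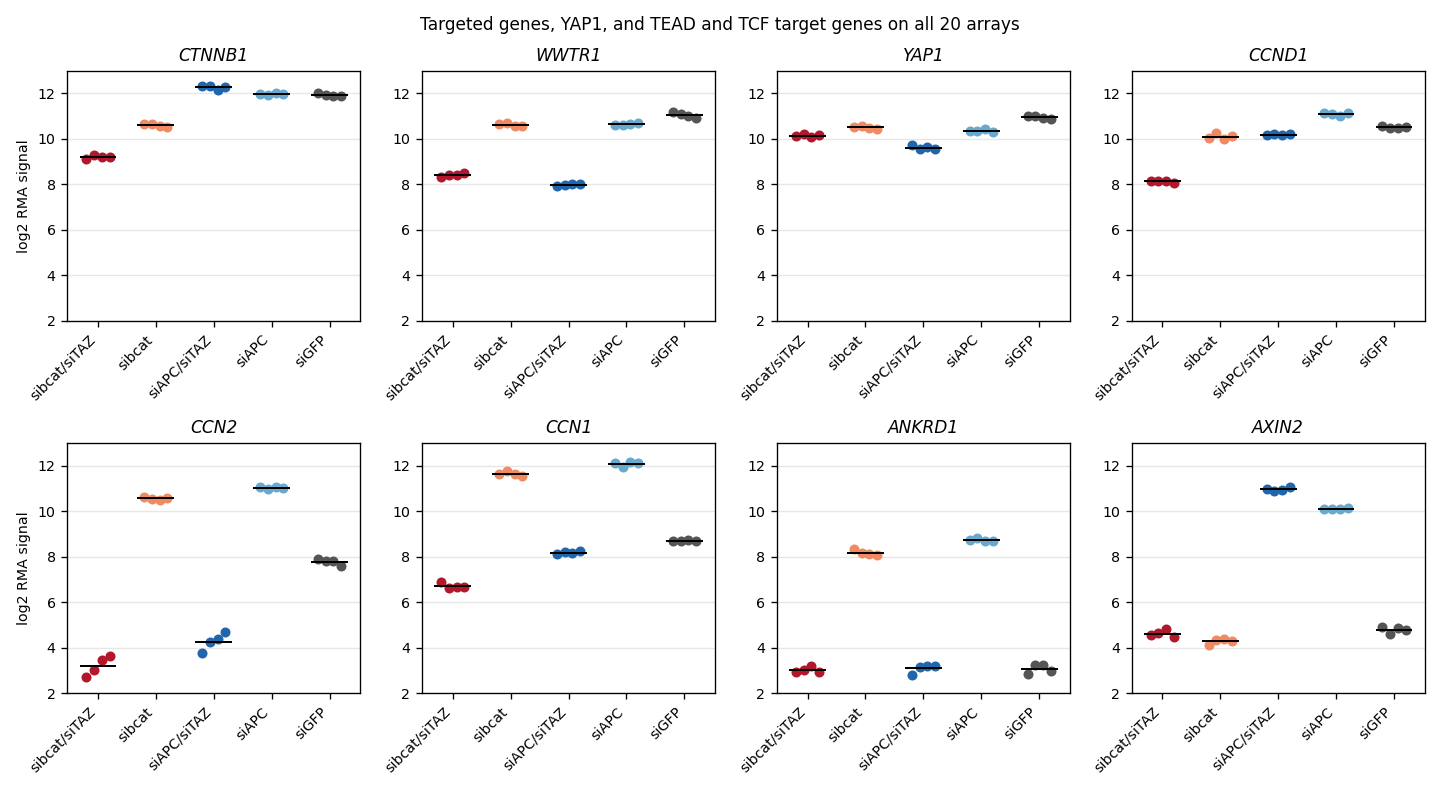
Log2 RMA signal (y axis) of CTNNB1, WWTR1, YAP1, CCND1, CCN2, CCN1, ANKRD1 and AXIN2 on each of the 20 arrays, by group (x axis). Points are arrays and bars are group means; CCND1 is lowest in sibcat/siTAZ, at 8.13, and AXIN2 averages 10.96 in siAPC/siTAZ and 10.10 in siAPC, against 4.62 in sibcat/siTAZ.

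Other genes of the same machinery also moved. YAP1, the paralogue of WWTR1, read 10.11, 10.21, 10.10 and 10.15 on the sibcat/siTAZ arrays, against 11.01, 10.99, 10.90 and 10.88 on the siGFP arrays. All 4 sibcat/siTAZ arrays were below all siGFP arrays, and the difference was -0.80 (SE 0.05, adjusted p = 1.6e-11). JUP, which encodes plakoglobin, the closest relative of beta-catenin at junctions, read 8.85, 8.80, 8.74 and 8.87 on the sibcat/siTAZ arrays, against 9.26, 9.33, 9.34 and 9.35 on the siGFP arrays, a difference of -0.51 (SE 0.07, adjusted p = 4.9e-06). Of the 19 measured genes of the destruction complex and the catenins, 3 rose and 8 fell, with a median difference of -0.13. The kinase genes CSNK1A1 and GSK3B fell, with differences of -0.69 and -0.46 on the log2 scale. Their other probe sets went both ways, from -0.73 to 0.21 for CSNK1A1 and from -0.80 to 0.38 for GSK3B among those called. TCF7L2, the main TCF factor of epithelia, differed by -0.28, while AMER1, an APC-binding protein, and PYGO2, a coactivator of beta-catenin, rose by 0.41 and 0.26. Among 9 genes for YAP, TAZ, TEAD factors and their VGLL competitors, 3 rose and 4 fell. VGLL4, a TEAD cofactor that competes with YAP and TAZ, read 9.64, 9.58, 9.55 and 9.62 on the sibcat/siTAZ arrays, against 8.81, 8.81, 8.82 and 8.92 on the siGFP arrays. It was the highest rise of this list, at 0.76 (SE 0.05, adjusted p = 3.9e-11). TEAD1 and TEAD2 rose by 0.14 and 0.30, and VGLL1 fell, with a difference of -0.71 (with only its specific probe sets the VGLL1 difference was 0.13 and did not pass). Of 22 genes of the Hippo cascade, 5 rose and 10 fell. The scaffold gene WWC1 and FRMD6 differed by -0.73 and -0.69, while the kinase genes TAOK1 and TAOK2 rose by 0.42 and 0.34, as did the protocadherin FAT1 (0.19) and the kinase MAP4K4 (0.14, but -0.06 with its specific probe sets).

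Most of the measured genes that TEAD factors are known to activate were lower in sibcat/siTAZ cells than in control cells. Of 21 measured TEAD targets, 13 fell, 6 of them at least 2-fold, 5 rose, and the median difference was -0.57. That median was -0.18 with the mean of all probe sets of a gene (13 lower, 4 higher) and -0.22 with specific probe sets (10 lower and 5 higher of 18). CCN2, a secreted matrix protein also called CTGF, read 2.72, 3.04, 3.45 and 3.64 on the sibcat/siTAZ arrays, against 7.88, 7.79, 7.81 and 7.57 on the siGFP arrays. The sibcat/siTAZ values lay at the bottom of the array's range, and the difference was -4.55 (SE 0.17, adjusted p = 2.9e-14), or 23.4-fold. CCN1, its relative also called CYR61, read 6.90, 6.64, 6.66 and 6.65 on the sibcat/siTAZ arrays, against 8.71, 8.71, 8.72 and 8.68 on the siGFP arrays, a difference of -1.99 (SE 0.06, adjusted p = 1.9e-15). Replicate A of sibcat/siTAZ stood above the other three for CCN1, still far below every siGFP array. AMOTL2, a junctional protein that binds YAP, read 7.49, 7.51, 7.57 and 7.55 on the sibcat/siTAZ arrays, against 9.82, 9.90, 9.79 and 9.82 on the siGFP arrays, a difference of -2.30 (SE 0.05, adjusted p = 5.7e-18). CRIM1, a membrane protein that binds BMPs, and F3, tissue factor, the starter of blood clotting, differed by -2.25 and -2.18. ANKRD1, a cofactor of muscle and stress genes and a classical TEAD target, read 2.92, 3.00, 3.21 and 2.93 on the sibcat/siTAZ arrays, against 2.85, 3.25, 3.26 and 2.96 on the siGFP arrays. The groups overlapped at the bottom of the range, and the difference of -0.07 (SE 0.10, adjusted p = 0.653) did not pass. The 5 members that rose were FJX1 (0.53), CCDC80 (0.51), RBMS3 (0.28), NT5E (0.17) and PTPN14 (0.17). NT5E had a difference of -0.08 over the mean of its 4 probe sets, so its direction depends on the probe set. Over the members measured, the mean level was 8.38 ± 0.02 on the sibcat/siTAZ arrays, 10.33 ± 0.03 on sibcat arrays, 8.70 ± 0.03 on siAPC/siTAZ arrays, 10.57 ± 0.01 on siAPC arrays and 9.20 ± 0.03 on siGFP arrays (SD over 4 arrays).

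The upstream sequences of CCN2 and AMOTL2 are shown because these genes were among the largest TEAD target falls. Each is the 180 bases before the transcription start, 5′ to 3′, from RefSeq on GRCh38.p14, with the TEAD core motif GGAATG, or CATTCC on the other strand, in capitals.
CCN2, chr6:131951373-131951552, minus strand: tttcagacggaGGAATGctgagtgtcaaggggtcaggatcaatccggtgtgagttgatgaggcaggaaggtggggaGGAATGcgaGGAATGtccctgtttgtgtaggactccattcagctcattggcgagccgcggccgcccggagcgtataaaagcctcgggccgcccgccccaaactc
AMOTL2, chr3:134374448-134374627, minus strand: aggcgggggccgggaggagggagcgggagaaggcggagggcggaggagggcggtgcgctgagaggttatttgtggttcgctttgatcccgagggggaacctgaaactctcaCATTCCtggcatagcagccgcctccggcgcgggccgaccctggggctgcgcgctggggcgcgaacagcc
CCN2 had 3 matches, which begin 169, 104 and 95 bases before the start, and AMOTL2 had 1, which begins 69 bases before it. The AMOTL2 promoter shown was picked for having the most matches among those of the gene. Within 250 bases before the start, 7 of the 15 TEAD targets with a promoter in the table held the motif, where 13.6% of 15384 measured genes with a promoter did. A match is a description of the letters and not a binding site.

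More genes of the beta-catenin/TCF set fell than rose against control cells, and CCND1 fell most. Of 25 measured members, 11 fell and 2 rose, with a median of -0.16 (-0.09 with specific probe sets, where 7 fell and none rose). CCND1, which encodes cyclin D1, the partner of CDK4 and CDK6 in early cell cycle progression, read 8.17, 8.14, 8.14 and 8.07 on the sibcat/siTAZ arrays, against 10.57, 10.49, 10.48 and 10.54 on the siGFP arrays. It fell, with a difference of -2.39 (SE 0.05, adjusted p = 4.2e-18) on the log2 scale, and its level in sibcat/siTAZ (8.13) was below sibcat (10.10), siAPC/siTAZ (10.19), siAPC (11.09) and siGFP (10.52). DKK1, a secreted Wnt antagonist, differed by -1.66 (SE 0.04, adjusted p = 3.1e-17). It averaged 10.22 in sibcat/siTAZ, 11.88 in siGFP and 12.52 in sibcat, so it was not lower with beta-catenin siRNA alone. The Hedgehog receptor gene PTCH1 and SOX9, a progenitor transcription factor, differed by -0.60 and -0.55. AXIN2, the feedback gene most often used to read beta-catenin activity, read 4.55, 4.63, 4.84 and 4.46 on the sibcat/siTAZ arrays, against 4.90, 4.62, 4.86 and 4.79 on the siGFP arrays. Its groups overlapped at the low end of the range, and the difference of -0.17 (SE 0.08, adjusted p = 0.0788) did not pass. MSX1 and MSX2, homeobox genes, were the 2 members that rose, by 0.34 and 0.22. Among 23 Wnt ligands and receptors, 9 rose and 4 fell. The receptor genes FZD1, ROR1 and LRP6 rose by 0.94, 0.78 and 0.56, while FZD7, FZD5, WNT7A and WNT9A differed by -0.43, -0.34, -0.35 and -0.27.

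Epithelial identity genes fell broadly. Of 15 measured epithelial transcription factors, 14 fell and none rose, with a median difference of -0.67. Their mean level was 7.86 ± 0.01 on sibcat/siTAZ arrays, 7.85 ± 0.02 on sibcat, 8.15 ± 0.01 on siAPC/siTAZ, 8.07 ± 0.02 on siAPC and 8.54 ± 0.03 on siGFP arrays. Against sibcat, 4 were higher and 4 lower (median -0.05), so the list was as low with beta-catenin siRNA alone. ELF3, an ETS factor of epithelial differentiation, read 7.03, 7.05, 7.02 and 7.09 on the sibcat/siTAZ arrays, against 8.91, 8.98, 9.10 and 9.15 on the siGFP arrays, a difference of -1.99 (SE 0.06, adjusted p = 7.1e-16). GRHL3, a grainyhead factor needed for the skin barrier, EHF, another ETS factor, and ESRP1, a splicing regulator of epithelial isoforms, differed by -1.33, -0.91 and -0.99. Of 16 tight junction genes, 14 fell, 7 of them at least 2-fold, and none rose, with a median of -0.89. OCLN, which encodes occludin, read 8.05, 7.98, 7.91 and 7.96 on the sibcat/siTAZ arrays, against 9.63, 9.85, 9.83 and 9.89 on the siGFP arrays, a difference of -1.82 (SE 0.05, adjusted p = 4.6e-16). MARVELD2 (tricellulin), CLDN7 and CLDN1 (claudins, the sealing strands of the junction) differed by -1.71, -1.47 and -1.43. CDH1, E-cadherin, the epithelial adhesion protein that beta-catenin binds, read 10.74, 10.79, 10.76 and 10.70 on the sibcat/siTAZ arrays, against 11.80, 12.00, 11.85 and 11.84 on the siGFP arrays. Its groups did not overlap, and the difference was -1.12 (SE 0.04, adjusted p = 8.2e-14). Among 12 cadherin and adherens junction genes, 5 fell and 2 rose. CDH3, P-cadherin, fell, with a difference of -0.69, and the members that rose were CDH2, N-cadherin of neural and mesenchymal cells, by 0.59, and CDH11, by 0.48 (-0.01 with its specific probe sets). Of 12 desmosome genes, 7 fell and 1 rose. PKP2, a plaque protein, and the desmogleins DSG3 and DSG2 differed by -1.55, -0.61 and -0.37, and DSC3, a desmocollin, rose by 0.14.

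Differentiation products of squamous and luminal cells showed the largest falls of all lists. Of 21 squamous differentiation genes, 17 fell, 11 of them at least 2-fold, and none rose (median -1.11). KLK7, a kallikrein protease of the cornified layer, read 9.91, 9.94, 9.94 and 10.02 on the sibcat/siTAZ arrays, against 12.33, 12.45, 12.36 and 12.43 on the siGFP arrays, a difference of -2.44 (SE 0.05, adjusted p = 4.2e-18). LCN2, the iron-siderophore binder lipocalin 2, IVL, the envelope protein involucrin, and SPRR1B, a cornified envelope precursor, differed by -3.29, -1.97 and -1.61. KRT13, a keratin of stratified mucosa, read 4.13, 3.85, 4.96 and 3.99 on the sibcat/siTAZ arrays, against 8.74, 8.75, 8.82 and 8.94 on the siGFP arrays, 23.9-fold lower. Of 21 luminal and secretory genes, 18 fell, 13 of them at least 2-fold, and none rose (median -1.82, or -3.08 over the 13 genes with specific probe sets). SLC6A14, an amino acid transporter, had the largest fall of all named genes. It read 3.70, 4.14, 3.84 and 3.72 on the sibcat/siTAZ arrays, against 9.65, 9.59, 9.43 and 9.43 on the siGFP arrays, a difference of -5.67 (SE 0.13, adjusted p = 3.3e-17), or 51.1-fold. GABRP, a GABA receptor subunit of secretory epithelia, read 5.12, 5.43, 5.19 and 5.18 on the sibcat/siTAZ arrays, against 10.52, 10.40, 10.45 and 10.49 on the siGFP arrays, and KRT23, a simple-type keratin, read 4.41, 4.14, 4.13 and 4.20 on the sibcat/siTAZ arrays, against 8.82, 8.97, 9.08 and 9.17 on the siGFP arrays. For both genes the siGFP arrays were bright, and the sibcat/siTAZ arrays lay near or below the array medians. The secretoglobin SCGB1A1, the adhesion proteins CEACAM6 and CEACAM1, the B7 family ligand VTCN1 and the protease inhibitor SERPINA3 differed by -4.55, -4.47, -3.08, -3.79 and -3.36. The mean level over the luminal list was 6.42 ± 0.05 on the sibcat/siTAZ arrays, 6.72 ± 0.03 on sibcat arrays, 7.08 ± 0.03 on siAPC/siTAZ arrays, 7.09 ± 0.02 on siAPC arrays and 8.72 ± 0.03 on siGFP arrays. Every group with a targeting siRNA thus read well below siGFP, with sibcat/siTAZ lowest and sibcat next. For the tight junction list the mean level was 7.59 ± 0.02 on the sibcat/siTAZ arrays, 7.78 ± 0.02 on sibcat arrays, 7.85 ± 0.01 on siAPC/siTAZ arrays, 8.02 ± 0.01 on siAPC arrays and 8.58 ± 0.01 on siGFP arrays.

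The keratin signal of an epithelial line was present in both groups. Of the 8 epithelial marker genes, 7 fell (median -0.86). LAMB3 and ITGB4, which anchor cells to the basement membrane, differed by -1.22 and -1.35, and KRT18 by -0.62. KRT18 still read 12.09 on sibcat/siTAZ arrays and 12.71 on siGFP arrays. Of 11 basal and myoepithelial genes, 7 fell and 2 rose. The basal keratins KRT14 and KRT15 fell, with differences of -0.98 and -0.58, and the smooth muscle genes TAGLN and ACTA2 rose by 1.02 and 0.50 (TAGLN was -0.10 with its specific probe sets).

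Matrix genes and several mesenchymal genes rose. Of 19 mesenchymal and EMT genes, 14 rose and 3 fell, with a median of 0.38. POSTN, periostin, a matrix protein of connective tissue, read 11.64, 11.64, 11.60 and 11.66 on the sibcat/siTAZ arrays, against 9.69, 9.69, 9.73 and 9.70 on the siGFP arrays. The difference was 1.93 (SE 0.03, adjusted p = 3.5e-19). TWIST1, a transcription factor of the mesenchymal transition, read 10.79, 10.81, 10.79 and 10.91 on the sibcat/siTAZ arrays, against 9.52, 9.57, 9.59 and 9.54 on the siGFP arrays, higher by 1.27 (SE 0.04, adjusted p = 1.1e-14), and ZEB1, a repressor of CDH1, rose by 0.75. The members that fell were TCF4 (-0.67), S100A4 (-0.66) and the collagen crosslinker LOX (-0.13), and LOX was 0.26 higher over the mean of its probe sets. Of 23 collagen and matrix genes, 15 rose, 8 at least 2-fold, and 4 fell. COL3A1, fibrillar collagen, read 8.30, 8.11, 7.98 and 8.25 on the sibcat/siTAZ arrays, against 5.40, 5.24, 5.40 and 5.74 on the siGFP arrays, a difference of 2.71 (SE 0.13, adjusted p = 1.0e-12). The basement membrane collagen COL4A1, COL6A1, COL8A1 and the microfibril gene FBN1 rose by 1.66, 1.54, 1.69 and 1.25. Another COL6A1 probe set rose by 0.32 and its remaining ones did not pass, so the size for COL6A1 refers to the brightest. THBS1, thrombospondin, LOXL2, COL13A1 and THBS2 fell, with differences of -1.98, -1.34, -0.66 and -0.34. THBS2 was below the array medians in both groups, at 3.66 on sibcat/siTAZ arrays and 4.00 on siGFP arrays. Of 19 integrin and laminin genes, 10 fell and 5 rose. LAMA4, a laminin chain of mesenchymal and vascular cells, rose by 2.00, but its other probe sets differed by -0.01 to 0.14 and did not pass. ITGB2, an integrin chain of leukocytes, and ITGA2, the collagen receptor chain, fell, with differences of -2.50 and -1.32. ITGA1, ITGA5, LAMC1 and ITGB1 rose by 0.89, 0.83, 0.56 and 0.26. Actin cytoskeleton and SRF target genes were mixed, with 6 of 20 higher and 7 lower. CORO1C, FHL2 and CNN3 fell, with differences of -0.76, -0.72 and -0.66, and MYH9, TPM2, TPM4 and CALD1, which build contractile filaments, rose by 0.27, 0.29, 0.23 and 0.11.

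Some collagens that also mark fibroblasts rose, while the median of the fibroblast list was -0.00. Of 9 fibroblast markers, 3 rose and none fell, where 25.4% of all genes were called higher and 19.5% lower. Counts this small do not set the list apart from all genes. The members that rose were COL3A1, COL1A1 (1.02) and the proteoglycan gene DCN (0.43). Of the members that did not pass, FAP, a membrane protease of activated fibroblasts, averaged 9.22 on sibcat/siTAZ arrays and 9.13 on siGFP arrays. The receptor gene PDGFRA and LUM, the matrix proteoglycan lumican, averaged 3.81 and 2.75 on sibcat/siTAZ arrays and 3.93 and 2.85 on siGFP arrays, below the array medians. The others, PDGFRB, THY1 and COL1A2, averaged 5.85, 5.13 and 4.45 on sibcat/siTAZ arrays and 5.85, 5.29 and 4.45 on siGFP arrays. DCN read 12.76 on sibcat/siTAZ arrays and 12.32 on siGFP arrays, a bright signal in both. Over the list the mean level was 6.97 ± 0.07 on the sibcat/siTAZ arrays, 6.28 ± 0.03 on sibcat arrays, 7.25 ± 0.05 on siAPC/siTAZ arrays, 6.29 ± 0.06 on siAPC arrays and 6.54 ± 0.05 on siGFP arrays, and the part of other cell types in the matrix results was not tested. Of 7 endothelial markers, KDR fell (-1.01) and the others did not pass. KDR was below the array medians in both groups, at 2.98 on sibcat/siTAZ arrays and 3.99 on siGFP arrays. Of 6 leukocyte markers, LCP1 (-0.35) and CD52 (-0.29) fell and CD14 rose (0.33). CD52 was also a weak signal, at 3.78 on sibcat/siTAZ arrays and 4.08 on siGFP arrays. PTPRC, the pan-leukocyte marker CD45, was near the bottom of the range, at 2.73 on sibcat/siTAZ arrays and 2.67 on siGFP arrays.

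**Figure D3:**
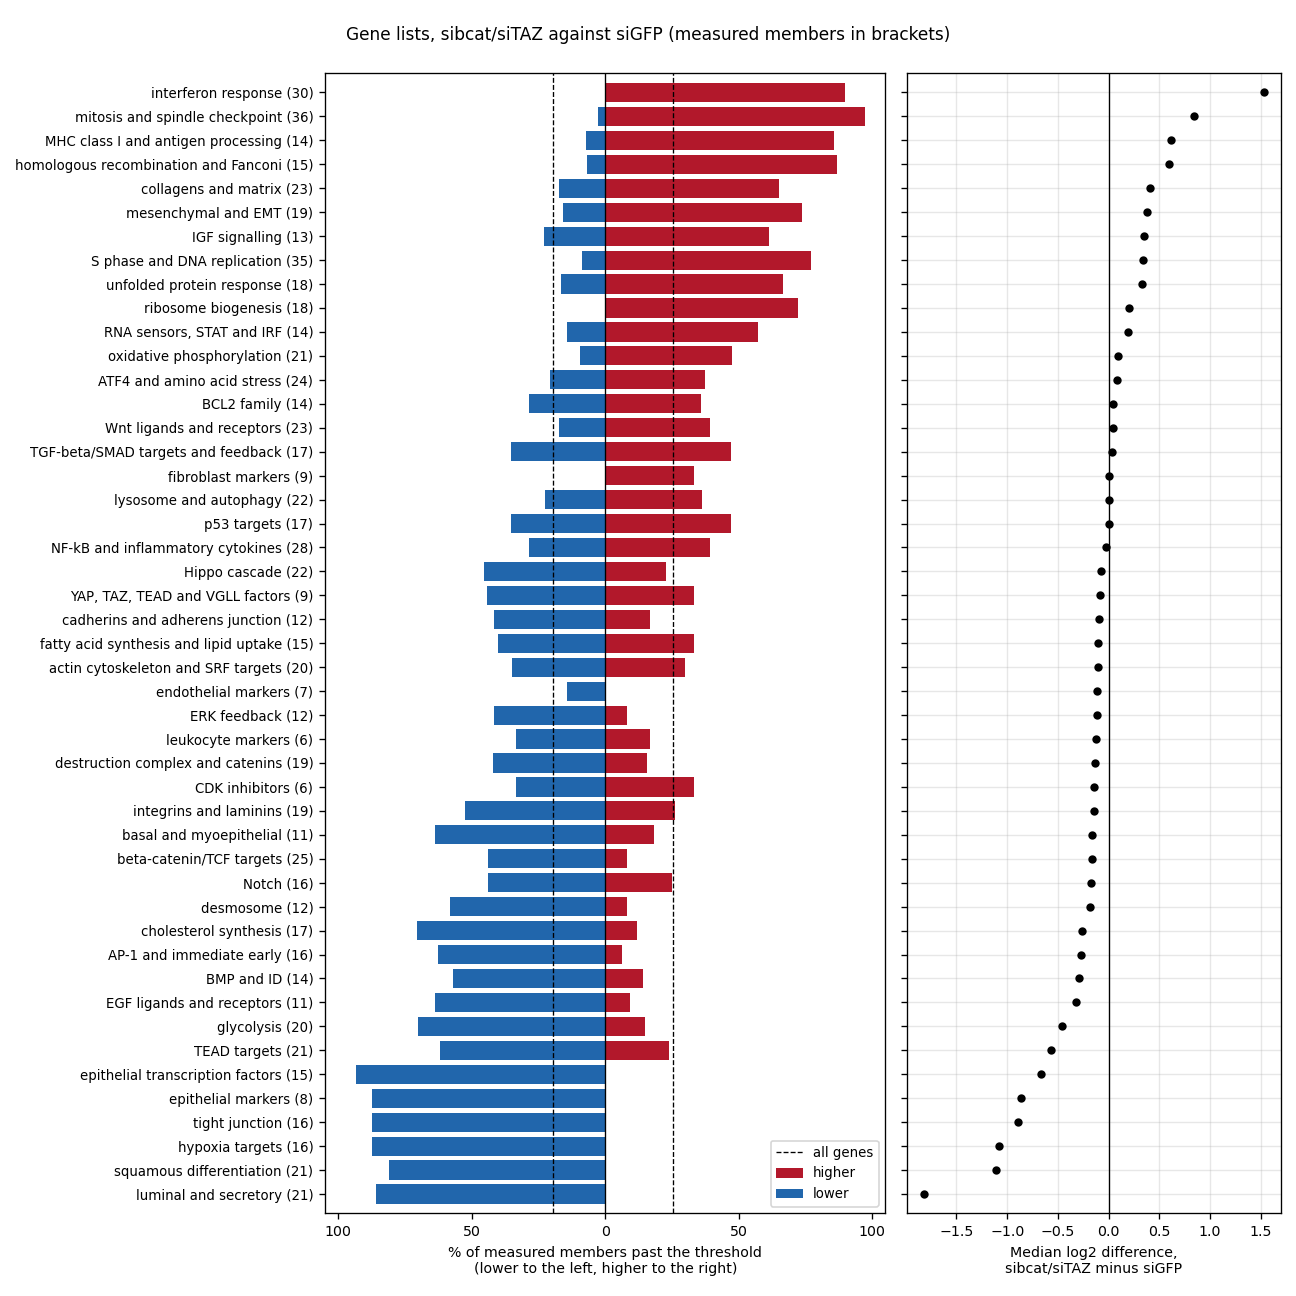
For 47 gene lists (y axis, measured members in brackets), the left panel gives the percentage of members called higher (right of 0) or lower (left of 0) in sibcat/siTAZ against siGFP, with dashed lines at 25.4% and 19.5% for all genes. The right panel gives the median log2 difference, which runs from -1.82 for luminal and secretory genes to 1.53 for the interferon response.

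Cell division genes rose together. Of 36 mitosis and spindle checkpoint genes, 35 rose and 1 fell, 9 rose at least 2-fold, and the median was 0.84. CENPE, the kinesin that carries chromosomes to the spindle equator, read 9.75, 9.76, 9.67 and 9.69 on the sibcat/siTAZ arrays, against 8.03, 7.90, 7.98 and 8.05 on the siGFP arrays. The difference was 1.73 (SE 0.04, adjusted p = 3.6e-17), the largest of the list. HMMR, a spindle-binding protein, read 11.33, 11.32, 11.34 and 11.27 on the sibcat/siTAZ arrays, against 10.21, 10.16, 10.13 and 10.18 on the siGFP arrays, higher by 1.15 (SE 0.04, adjusted p = 3.4e-14). KIF20A, a kinesin of cytokinesis, and DLGAP5, a spindle stabiliser, rose by 1.01 and 1.07. CENPI, a centromere protein, was the single member that fell (-0.20), and the mean of its 4 probe sets differed by 0.01. Of 35 S phase and replication genes, 27 rose and 3 fell (median 0.34). RRM2, the ribonucleotide reductase subunit that makes DNA precursors, read 11.86, 11.78, 11.82 and 11.83 on the sibcat/siTAZ arrays, against 10.60, 10.67, 10.76 and 10.81 on the siGFP arrays, higher by 1.11 (SE 0.04, adjusted p = 9.6e-14). ORC6, MCM10 and FEN1, which act in origin recognition, helicase activation and Okazaki fragment processing, rose by 0.66, 0.74 and 0.54, while E2F2, GINS1 and RPA2 fell, with differences of -0.50, -0.42 and -0.10. Of 15 homologous recombination and Fanconi genes, 13 rose and 1 fell (median 0.60). BRIP1, BRCA1, FANCI and the damage kinase gene ATM rose by 0.83, 0.67, 0.60 and 0.56, and PALB2 differed by -0.21. These rises stood beside the fall of CCND1. Over the mitosis list the mean level was 9.79 ± 0.02 on the sibcat/siTAZ arrays, 9.53 ± 0.03 on sibcat arrays, 8.32 ± 0.01 on siAPC/siTAZ arrays, 8.95 ± 0.00 on siAPC arrays and 8.99 ± 0.01 on siGFP arrays, so sibcat/siTAZ was the highest of the 5 groups and siAPC/siTAZ the lowest.

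CDK inhibitor genes were split. CDKN1A, p21, read 10.12, 10.09, 10.13 and 10.20 on the sibcat/siTAZ arrays, against 11.33, 11.32, 11.48 and 11.29 on the siGFP arrays. Every sibcat/siTAZ array was below every siGFP array, and the difference was -1.22 (SE 0.05, adjusted p = 5.9e-14). CDKN1C, p57, read 4.63, 5.44, 4.95 and 5.30 on the sibcat/siTAZ arrays, against 7.31, 7.26, 7.35 and 7.36 on the siGFP arrays, a difference of -2.24 (SE 0.13, adjusted p = 2.0e-11). CDKN1B, p27, rose by 0.59, and CDKN2D rose by 0.73 (-0.34 with its specific probe set, where it was called lower). Of 17 p53 target genes, 8 rose and 6 fell, with a median of 0.00. The members that rose, named after their values were seen, were SESN2 (0.70) and SESN1 (0.33), stress-induced sestrins, the death genes BAX (0.69), FAS (0.38) and TNFRSF10B (0.20), the nuclease gene AEN (0.55), the repair gene XPC (0.38) and MDM2 (0.33), the ligase that destroys p53. The members that fell were, besides CDKN1A, the autophagy and stress gene TP53INP1 (-1.40), GDF15 (-0.98), ZMAT3 (-0.78), DDB2 (-0.35) and PLK3 (-0.35).

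The upstream sequences of HMMR and DLGAP5 are shown because both are named mitosis genes that rose and that hold the motif below. For CENPE and KIF20A, looked up in the same way, there was no sequence with a match to show. The capitals mark TTTGAA, or TTCAAA on the other strand, the core of the cell cycle genes homology region through which the DREAM complex and MYB-MuvB act on G2/M genes.
HMMR, chr5:163460452-163460631, plus strand: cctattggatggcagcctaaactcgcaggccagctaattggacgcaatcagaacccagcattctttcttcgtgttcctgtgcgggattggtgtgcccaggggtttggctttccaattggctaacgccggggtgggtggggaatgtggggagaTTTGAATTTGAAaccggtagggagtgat
DLGAP5, chr14:55191586-55191765, minus strand: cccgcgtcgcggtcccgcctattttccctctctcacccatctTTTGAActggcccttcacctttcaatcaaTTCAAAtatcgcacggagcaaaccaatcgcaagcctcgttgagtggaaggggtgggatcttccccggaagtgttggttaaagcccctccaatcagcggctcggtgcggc
Matches begin 28 and 22 bases before the start of HMMR and 138 and 109 bases before that of DLGAP5. In the 250 bases before the start, 16 of 30 mitosis genes with a promoter held the motif, where 13.9% of 15384 genes did. The motif is known from G2/M genes, so its presence is not a result of these samples.

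Interferon-stimulated genes showed the largest rise of all lists. Of 30 measured members, 27 rose and none fell, 22 of them at least 2-fold, and the median was 1.53. IFI6, a mitochondrial and ER protein that blocks viral replication, read 11.31, 11.06, 11.13 and 11.48 on the sibcat/siTAZ arrays, against 7.39, 7.38, 7.56 and 7.52 on the siGFP arrays. The difference was 3.78 (SE 0.09, adjusted p = 3.9e-17), or 13.8-fold. IFI44L read 10.75, 10.66, 10.76 and 10.85 on the sibcat/siTAZ arrays, against 7.40, 7.21, 7.37 and 7.37 on the siGFP arrays, higher by 3.42 (SE 0.05, adjusted p = 8.1e-20). IFIT1, which binds viral RNA without host cap methylation, read 10.79, 10.75, 10.76 and 10.92 on the sibcat/siTAZ arrays, against 7.47, 7.39, 7.42 and 7.36 on the siGFP arrays, a difference of 3.40 (SE 0.06, adjusted p = 7.7e-19). ISG15, the ubiquitin-like modifier, read 11.40, 11.21, 11.32 and 11.43 on the sibcat/siTAZ arrays, against 8.12, 8.18, 8.26 and 8.15 on the siGFP arrays, a difference of 3.16 (SE 0.05, adjusted p = 9.4e-20). No array of one group came near the other for these genes. IFI44, IFI27, BST2 (tetherin, which holds virions at the cell surface), OASL and MX1 rose by 3.25, 3.12, 2.98, 2.35 and 2.22. MX1 was lower on replicate B of sibcat/siTAZ than on the other three. The mean over the 30 genes was 8.48 ± 0.07 on the sibcat/siTAZ arrays, 7.63 ± 0.01 on sibcat arrays, 6.62 ± 0.03 on siAPC/siTAZ arrays, 6.45 ± 0.02 on siAPC arrays and 6.83 ± 0.04 on siGFP arrays. The order put sibcat/siTAZ first and sibcat second, and the siAPC/siTAZ cells were below siGFP cells. The part of the transfected siRNAs themselves in these levels was not tested.

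Some genes for sensors and regulators of the interferon system also rose, and whether they drove the rise above or were part of it was not tested. Of 14 genes for RNA sensors, STATs and IRFs, 8 rose and 2 fell. RIGI, a sensor of 5′ triphosphate RNA, read 9.64, 9.55, 9.60 and 9.72 on the sibcat/siTAZ arrays, against 7.66, 7.71, 7.82 and 7.66 on the siGFP arrays, higher by 1.92 (SE 0.04, adjusted p = 1.3e-17). IFIH1 (MDA5, a sensor of long double-stranded RNA), IRF9 (the DNA-binding part of the ISGF3 complex) and EIF2AK2 (PKR) rose by 1.17, 1.18 and 0.66, while IRF1 and TLR3 fell, with differences of -0.19 and -0.13. The interferon genes of this list, IFNB1, IFNL1 and IFNL2, averaged 3.42, 4.40 and 3.19 on sibcat/siTAZ arrays and 3.35, 4.28 and 3.13 on siGFP arrays, below the array medians, and none passed. They were chosen after their values were seen, as were PTPRC and the fibroblast markers that did not pass above. Of 14 MHC class I and antigen processing genes, 12 rose and 1 fell (median 0.62, or 0.41 with specific probe sets). NLRC5, the transactivator of class I genes, read 7.24, 7.36, 7.43 and 7.28 on the sibcat/siTAZ arrays, against 5.90, 5.71, 5.54 and 5.55 on the siGFP arrays, higher by 1.65 (SE 0.08, adjusted p = 6.6e-13). The immunoproteasome genes PSMB9 and PSMB8 and the class I gene HLA-F rose by 1.42, 0.93 and 0.85, and PSMB10 fell, with a difference of -0.18. Class I genes share sequence, so their probe sets may read several members.

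The upstream sequences of IFIT1, IFI6 and ISG15 are shown as examples of the list's larger rises, each 8.95-fold or more. IFI44L and IFI44 rose as much (10.7-fold and 9.55-fold) and are not shown. Capitals mark the interferon-stimulated response element, 2 runs of GAAA, or of TTTC on the other strand, with any 2 bases between them.
IFIT1, chr10:89392443-89392622, plus strand: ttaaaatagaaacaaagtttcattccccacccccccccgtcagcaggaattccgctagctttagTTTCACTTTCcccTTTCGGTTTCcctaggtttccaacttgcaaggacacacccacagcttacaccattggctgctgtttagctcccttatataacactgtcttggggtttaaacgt
IFI6, chr1:27672193-27672372, minus strand: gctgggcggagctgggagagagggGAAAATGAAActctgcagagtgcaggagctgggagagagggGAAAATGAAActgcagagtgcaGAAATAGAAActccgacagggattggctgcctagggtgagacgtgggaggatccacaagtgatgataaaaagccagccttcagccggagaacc
ISG15, chr1:1013317-1013496, plus strand: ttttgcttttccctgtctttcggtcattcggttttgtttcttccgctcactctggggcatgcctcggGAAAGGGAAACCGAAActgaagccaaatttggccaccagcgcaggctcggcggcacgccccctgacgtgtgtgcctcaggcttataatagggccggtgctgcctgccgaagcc
IFIT1 held 2 matches, IFI6 held 3, and ISG15 held 2 that overlap. In the 250 bases before the start, 18 of 24 interferon response genes with a promoter held the element, where 3.39% of 15384 genes did. The element was first described in genes of this kind, so its presence is not a result of these samples.

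Inflammatory genes were mixed. Of 28 NF-kB targets and cytokines, 11 rose and 8 fell (median -0.03). CXCL1, a neutrophil chemokine, averaged 10.95 ± 0.06 on the sibcat/siTAZ arrays and 8.89 ± 0.09 on the siGFP arrays (SD, n = 4 each), higher by 2.06 (SE 0.05, adjusted p = 1.5e-16), and IL6 rose by 1.64. PTGS2, cyclooxygenase-2, read 5.81, 6.01, 6.35 and 5.97 on the sibcat/siTAZ arrays, against 8.65, 8.60, 8.59 and 8.64 on the siGFP arrays, a difference of -2.58 (SE 0.08, adjusted p = 3.2e-15). The chemokine CCL20, the cytokine LIF and TNFAIP2 fell, with differences of -1.72, -1.27 and -1.04. The other members that fell were the alarmin IL33 (-0.88), the mitochondrial superoxide dismutase SOD2 (-0.52), NFKB2 (-0.37) and TNF (-0.19). IL33, TNF and NFKB2 were weak signals, at 3.10, 3.67 and 4.88 on sibcat/siTAZ arrays and 3.98, 3.86 and 5.25 on siGFP arrays.

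Hypoxia-inducible and glycolytic genes fell. Of 16 hypoxia targets, 14 fell, 9 at least 2-fold, and none rose (median -1.08). With specific probe sets 7 of 10 fell and 1 rose. EGLN3, a prolyl hydroxylase that marks HIF for destruction and is itself a HIF target, read 5.61, 5.36, 5.55 and 5.61 on the sibcat/siTAZ arrays, against 8.91, 9.08, 9.01 and 9.12 on the siGFP arrays. Every sibcat/siTAZ array was far below, with a difference of -3.50 (SE 0.09, adjusted p = 1.0e-16). NDRG1, a stress-response protein, read 9.38, 9.27, 9.29 and 9.37 on the sibcat/siTAZ arrays, against 11.64, 11.59, 11.72 and 11.73 on the siGFP arrays, a difference of -2.34 (SE 0.04, adjusted p = 3.2e-19). ADM, the vasodilator peptide adrenomedullin, and ANKRD37 differed by -2.06 and -1.61. Of 20 glycolysis genes, 14 fell and 3 rose (median -0.46). ALDOC, an aldolase, read 6.90, 6.81, 6.75 and 6.68 on the sibcat/siTAZ arrays, against 8.68, 8.69, 8.88 and 8.79 on the siGFP arrays, a difference of -1.98 (SE 0.08, adjusted p = 1.5e-13). PFKFB4 and PFKFB3, which set the activator of phosphofructokinase, and HK2, a hexokinase, fell, with differences of -1.64, -0.82 and -0.71. The members that rose were PFKM (0.28), PFKL (0.16) and the glucose transporter SLC2A3 (0.14, but -0.18 over the mean of its probe sets). The mean over the hypoxia list was 9.43 ± 0.02 on the sibcat/siTAZ arrays, 10.24 ± 0.02 on sibcat arrays, 9.32 ± 0.03 on siAPC/siTAZ arrays, 10.27 ± 0.02 on siAPC arrays and 10.68 ± 0.01 on siGFP arrays, so the groups with TAZ siRNA were below the others, and siGFP was highest. Of 21 oxidative phosphorylation genes, 10 rose and 2 fell (median 0.09), with CYCS, cytochrome c, the largest rise at 0.61. The complex subunits ATP5MC1, NDUFB3 and UQCRC2 rose by 0.30, 0.27 and 0.24, and COX5B and NDUFV1 fell, with differences of -0.23 and -0.12.

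ANKRD37 and ALDOC are shown with the core of the hypoxia response element, ACGTG or CACGT, in capitals, because both fell and are described HIF targets.
ANKRD37, chr4:185396661-185396840, plus strand: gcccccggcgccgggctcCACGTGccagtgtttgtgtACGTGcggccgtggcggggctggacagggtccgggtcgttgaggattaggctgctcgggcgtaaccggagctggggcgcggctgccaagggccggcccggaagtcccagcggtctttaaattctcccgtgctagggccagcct
ALDOC, chr17:28576896-28577075, minus strand: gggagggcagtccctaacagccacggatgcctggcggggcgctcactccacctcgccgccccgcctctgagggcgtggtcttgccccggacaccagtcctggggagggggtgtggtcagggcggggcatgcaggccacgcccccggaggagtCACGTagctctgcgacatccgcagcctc
ANKRD37 held 3 matches, of which 2 overlap, and ALDOC held 1, which begins 28 bases before the start. In the 250 bases before the start, the core was held by 8 of 13 hypoxia targets and 12 of 19 glycolysis genes with a promoter, where 25.6% of 15384 genes held it. HIF targets are known by this core, so its presence is not a result of these samples.

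**Figure D4:**
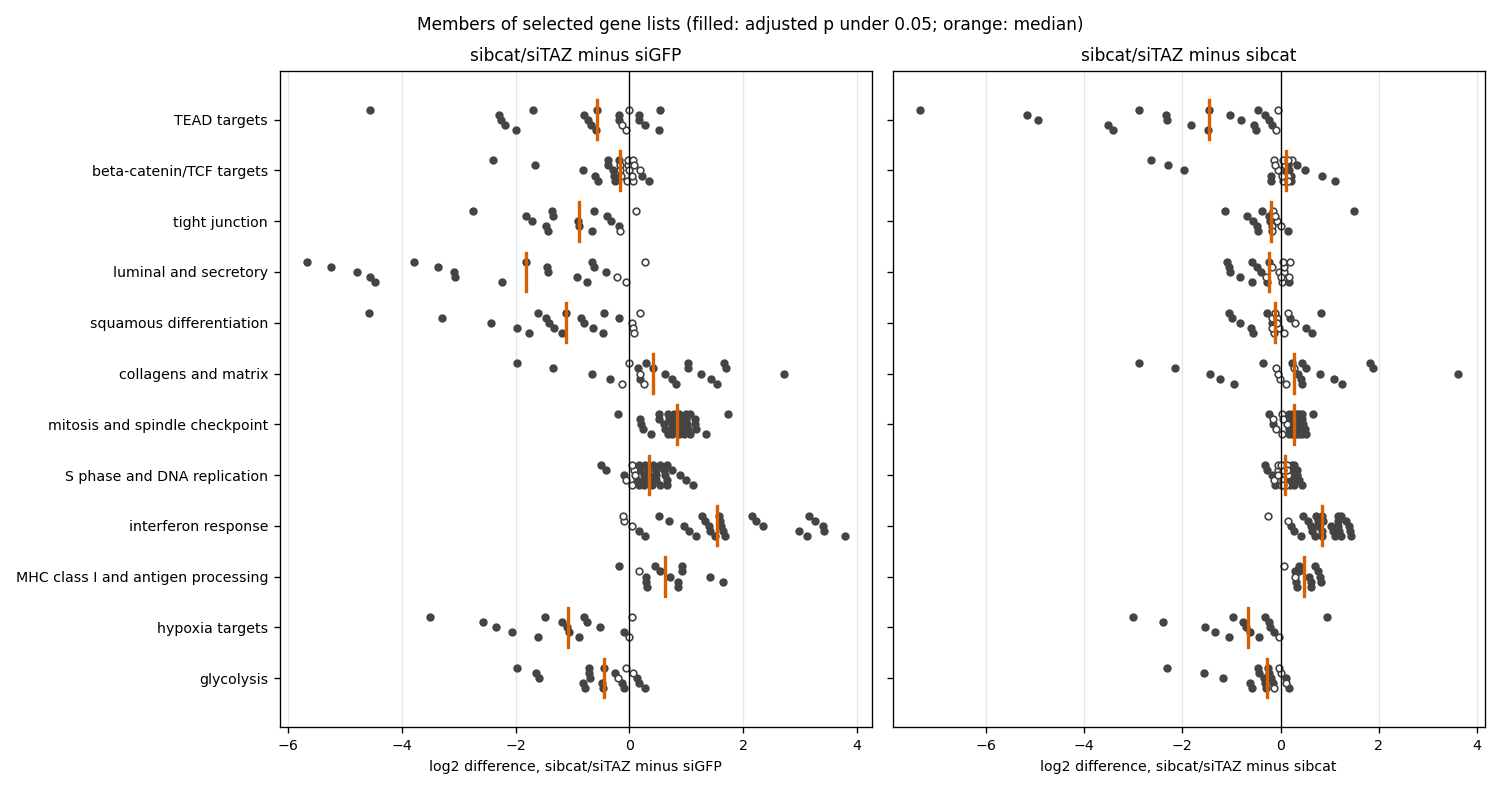
Each point is a gene of 1 of 12 lists (y axis), placed by its log2 difference, sibcat/siTAZ minus siGFP in the left panel and sibcat/siTAZ minus sibcat in the right panel. Filled points passed an adjusted p under 0.05 and orange bars are medians; the interferon median is 1.53 on the left and 0.85 on the right, and the luminal median is -1.82 on the left and -0.24 on the right.

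Stress and lipid pathways were mixed. Of 24 ATF4 and amino acid stress genes, 9 rose and 5 fell (median 0.08). PSAT1 and MTHFD2, of serine and one-carbon metabolism, rose by 0.79 and 0.57, and the lipoprotein receptor VLDLR, the hormone gene STC2, ATF4 itself, SHMT2 and NUPR1 fell, with differences of -2.29, -1.61, -0.50, -0.29 and -0.27. Of 18 unfolded protein response genes, 12 rose and 3 fell (median 0.33, or 0.20 with the mean of all probe sets). SDF2L1, CALR (the chaperone calreticulin), CRELD2 and DNAJC3 rose by 1.05, 0.78, 0.73 and 0.64, while HERPUD1, ATF6 and DNAJB9 fell, with differences of -0.17, -0.12 and -0.15 (DNAJB9 was 0.09 with its specific probe set). Other ATF6 probe sets differed by 0.35 and -0.22, so its direction depends on the probe set. Of 17 cholesterol synthesis genes, 12 fell and 2 rose (median -0.26). LSS, lanosterol synthase, read 8.48, 8.54, 8.51 and 8.59 on the sibcat/siTAZ arrays, against 9.45, 9.46, 9.44 and 9.46 on the siGFP arrays, a difference of -0.92 (SE 0.05, adjusted p = 4.8e-12). SQLE, squalene epoxidase, and MSMO1 fell, with differences of -0.83 and -0.43, and PMVK and SC5D rose by 0.59 and 0.14 (SC5D was -0.07 with its specific probe set). Of 15 fatty acid and lipid uptake genes, 5 rose and 6 fell. The fatty acid binders FABP4 and FABP5 and the fatty acid receptor CD36 rose by 2.17, 0.85 and 1.60, PPARG, the factor that activates FABP4 and CD36, and the elongase ELOVL6 rose by 0.64 and 0.18, and SCD, the stearoyl desaturase, fell, with a difference of -0.61. Of 22 lysosome and autophagy genes, 8 rose and 5 fell, with the proteases CTSL and CTSB higher by 0.57 and 0.37. CTSD, CTSA, NPC2, GABARAPL1 and ATG7 fell, with differences of -0.55, -0.36, -0.38, -0.28 and -0.18. Of 18 ribosome biogenesis genes, 13 rose and none fell, with small changes (median 0.20) led by NOLC1 at 0.92, UTP20 at 0.52 and NOP16 and the polymerase I subunit POLR1B at 0.41 and 0.41. Of 14 BCL2 family genes, 5 rose and 4 fell. The death inducers BCL2L11 (BIM) and PMAIP1 (NOXA) rose by 0.89 and 0.48, and the survival genes MCL1, BCL2L1 and BCL2L2 fell, with differences of -0.73, -0.62 and -0.93, as did the death inducer HRK (-0.82).

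Among genes downstream of growth factors, more fell than rose. Of 16 AP-1 and immediate early genes, 10 fell and 1 rose (median -0.27). EGR1, an early growth response factor, read 7.95, 8.17, 8.09 and 8.19 on the sibcat/siTAZ arrays, against 10.44, 10.56, 10.52 and 10.50 on the siGFP arrays, a difference of -2.40 (SE 0.05, adjusted p = 6.1e-18). JUN, an AP-1 subunit that often binds beside TEAD, read 7.77, 7.87, 7.64 and 7.70 on the sibcat/siTAZ arrays, against 9.24, 9.32, 9.23 and 9.31 on the siGFP arrays, a difference of -1.53 (SE 0.05, adjusted p = 2.5e-15). EGR3 and MAFF fell, with differences of -2.23 and -1.82, and IER2 rose by 0.20. Of 12 ERK feedback genes, 5 fell and 1 rose. ETV5 and SPRY1 fell, with differences of -0.76 and -0.57 and DUSP5 rose by 0.34. PHLDA1 differed by -0.48 with the probe set used and by 0.47 over the mean of its 6 probe sets, 4 of which were called in the other direction. Of 11 EGF ligands and receptors, 7 fell and 1 rose. ERRFI1, the feedback inhibitor of EGFR, ERBB3, TGFA and ERBB2 fell, with differences of -1.70, -0.96, -0.74 and -0.59, and the ligand EREG rose by 0.70.

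TGF-beta genes were mixed, with 8 of 17 higher and 6 lower. TGFBR1, the type I receptor, rose by 1.05. INHBA, the activin subunit, the ligand TGFB2 and the ubiquitin ligase SMURF2 fell, with differences of -1.75, -1.70 and -1.15, as did the feedback genes SKIL (-0.32), TGIF1 (-0.30) and BAMBI (-0.25). Of 14 BMP and ID genes, 8 fell and 2 rose. The ligand-binding inhibitor FST, the BMP transducer SMAD5 and the HLH inhibitor ID1 fell, with differences of -1.25, -0.55 and -0.45, while ID3 and BMP2 rose by 1.27 and 0.47. Of 16 Notch genes, 7 fell and 4 rose. HEY1, a Notch target repressor, read 8.43, 8.29, 8.31 and 8.29 on the sibcat/siTAZ arrays, against 6.33, 6.46, 6.58 and 6.46 on the siGFP arrays, higher by 1.87 (SE 0.05, adjusted p = 6.3e-16), and HES2 and RBPJ differed by -1.60 and -1.01 (RBPJ was 0.20 with its specific probe sets). The receptor genes NOTCH1 and NOTCH3 and the repressor HEY2 rose by 0.46, 0.29 and 0.38. Of 13 IGF signalling genes, 8 rose and 3 fell. IRS1, an adaptor of the insulin and IGF receptors, IGFBP5 and IGF2R, the receptor that clears IGF2, rose by 1.02, 1.56 and 0.58. The other IGFBP5 probe sets that passed differed by 0.32 and -0.32, so its rise rests on the probe set used. IRS2, the other main adaptor, the receptor gene INSR and IGFBP3 fell, with differences of -1.31, -0.41 and -0.18.

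Several of the largest changes lay outside these lists. F2RL2, a thrombin-activated receptor, read 9.12, 9.14, 9.03 and 9.13 on the sibcat/siTAZ arrays, against 5.13, 4.99, 5.28 and 5.30 on the siGFP arrays, the largest rise among the named genes, at 3.93 (SE 0.07, adjusted p = 2.2e-19). IQGAP2, a scaffold of the actin cytoskeleton, read 10.21, 10.16, 10.17 and 10.08 on the sibcat/siTAZ arrays, against 6.35, 6.23, 6.32 and 6.21 on the siGFP arrays, higher by 3.88 (SE 0.07, adjusted p = 3.2e-19). The other of its 2 probe sets did not pass. The matrix proteases ADAMTS5 (aggrecanase) and MMP13 (collagenase-3) read 6.92 and 7.31 on sibcat/siTAZ arrays and 4.08 and 4.48 on siGFP arrays, rises of 2.83 and 2.83. ARG2, the mitochondrial arginase, rose by 2.53. S100P, a calcium-binding protein of secretory epithelia, read 9.19, 9.18, 9.13 and 9.15 on the sibcat/siTAZ arrays, against 12.90, 12.94, 13.02 and 13.05 on the siGFP arrays. The difference was -3.81 (SE 0.05, adjusted p = 2.6e-20), or 14.1-fold. The LEM domain gene LEMD1, DEPP1 (a FOXO-responsive gene), the long noncoding RNA UCA1, COXFA4L3 and the cell cycle regulator RGCC fell, with differences of -4.54, -3.83, -3.70, -3.97 and -3.59. All of these named genes had 4 sibcat/siTAZ arrays on one side of all 4 siGFP arrays, which was a condition for naming them.

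Against cells with beta-catenin siRNA alone, the comparison that gives what the added TAZ siRNA changed in that background, 3555 genes (18.0%) were higher in sibcat/siTAZ and 2709 (13.7%) lower, with 161 and 296 at least 2-fold. Nearly all TEAD targets were lower (19 of 21), none was higher, and the median was -1.46 (-0.93 with the mean of all probe sets and -0.92 with specific ones). CTNNB1 was itself lower in this comparison, as given above, so it is not one of TAZ alone. CCN2 read 2.72, 3.04, 3.45 and 3.64 on the sibcat/siTAZ arrays, against 10.62, 10.52, 10.51 and 10.60 on the sibcat arrays. The difference was -7.35 (SE 0.17, adjusted p = 3.4e-17), or 163-fold, and the sibcat arrays also lay above the siGFP arrays. CCN1 and ANKRD1 fell, with differences of -4.94 and -5.16. CCBE1 (a secreted factor for lymphatic growth), OLR1 (the oxidised LDL receptor), the transporter ABCA8, LYPD6B and TMEM178B fell, with differences of -4.47, -4.33, -4.23, -3.92 and -3.92. OLR1, ABCA8 and LYPD6B read 3.29, 2.96 and 4.31 in sibcat/siTAZ, against 7.62, 7.19 and 8.23 in sibcat, and were also low in siGFP, at 3.68, 2.84 and 4.71. Hypoxia targets were lower in 14 of 16 (median -0.66), glycolysis genes in 14 of 20, ATF4 genes in 16 of 24 and cholesterol genes in 13 of 17. Interferon genes were higher in 28 of 30 and lower in none (median 0.85), MHC class I genes higher in 12 of 14, and mitosis genes higher in 28 and lower in 2 of 36. Beta-catenin/TCF targets were higher in 9 and lower in 5 of 25 (median 0.11).

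COL3A1 read 8.30, 8.11, 7.98 and 8.25 on the sibcat/siTAZ arrays, against 4.39, 4.29, 4.67 and 4.86 on the sibcat arrays, the largest rise of this comparison, at 3.61 (SE 0.13, adjusted p = 2.1e-14). PI15 (a secreted protease inhibitor), SULT1E1 (oestrogen sulfotransferase), the receptor phosphatase PTPRZ1, the collagenase MMP1, the hyaluronan-binding TNFAIP6, TMEM100 and ENPP2 (autotaxin) rose by 3.19, 3.08, 2.89, 2.58, 2.52, 2.48 and 2.32. PTPRZ1 averaged 6.58 in sibcat/siTAZ and 6.73 in siGFP, and that difference of -0.15 (SE 0.11, adjusted p = 0.308) did not pass. Of squamous and luminal genes, 7 of 21 and 10 of 21 were lower, with medians of -0.12 and -0.24. SLC6A14, KRT23, KRT13, SCGB1A1 and CEACAM6 did not pass against sibcat (differences -0.30, -0.03, 0.30, 0.20 and 0.05).

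Against cells with APC and TAZ siRNA, where TAZ is also low but beta-catenin is not targeted, 4790 genes (24.2%) were higher in sibcat/siTAZ and 4118 (20.8%) lower, with 597 and 553 at least 2-fold. Beta-catenin/TCF targets were lower in 17 of 25 and higher in 1 (median -0.89, or -0.41 with specific probe sets). AXIN2 read 4.55, 4.63, 4.84 and 4.46 on the sibcat/siTAZ arrays, against 10.99, 10.87, 10.92 and 11.06 on the siAPC/siTAZ arrays. The difference was -6.34 (SE 0.08, adjusted p = 2.3e-21), 81-fold. DKK2, a Wnt antagonist, read 2.63, 2.66, 2.78 and 2.65 on the sibcat/siTAZ arrays, against 8.90, 9.11, 9.01 and 9.15 on the siAPC/siTAZ arrays, 82.3-fold lower. The ligand BMP4, the matricellular CCN4, the hyaluronan synthase HAS2, IGFL2, the connexin GJA1 and the TCF family factor LEF1 were lower than in siAPC/siTAZ, with differences of -5.48, -5.33, -5.00, -4.61, -4.57 and -4.57. Differences from siGFP were much smaller. BMP4, IGFL2, GJA1 and DKK2 averaged 5.40, 6.67, 6.12 and 2.68 in sibcat/siTAZ and 5.64, 6.67, 6.40 and 2.65 in siGFP. HAS2 probe sets were higher than in siGFP, by 0.75 and 0.54. The largest differences of CCN4 and LEF1 probe sets from siGFP were -1.79 and -0.38. All 36 mitosis genes were higher (median 1.45), as were 33 of 35 S phase genes (median 1.12) and 28 of 30 interferon genes (median 1.59). IFIT1 read 10.79, 10.75, 10.76 and 10.92 on the sibcat/siTAZ arrays, against 6.39, 6.66, 6.39 and 6.42 on the siAPC/siTAZ arrays, higher by 4.34 (SE 0.06, adjusted p = 1.8e-20). IQGAP2, IFI27, IFIT2, TIMP2 (a metalloprotease inhibitor), IFITM1, ISG15 and PTGFR (a prostaglandin receptor) rose by 4.28, 3.62, 3.56, 3.46, 3.37, 3.34 and 3.31. TEAD targets were lower in 12 and higher in 6 of 21 (median -0.13), p53 targets lower in 14 of 17 and higher in none, and hypoxia targets higher in 8 and lower in 4 of 16.

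**Figure D5:**
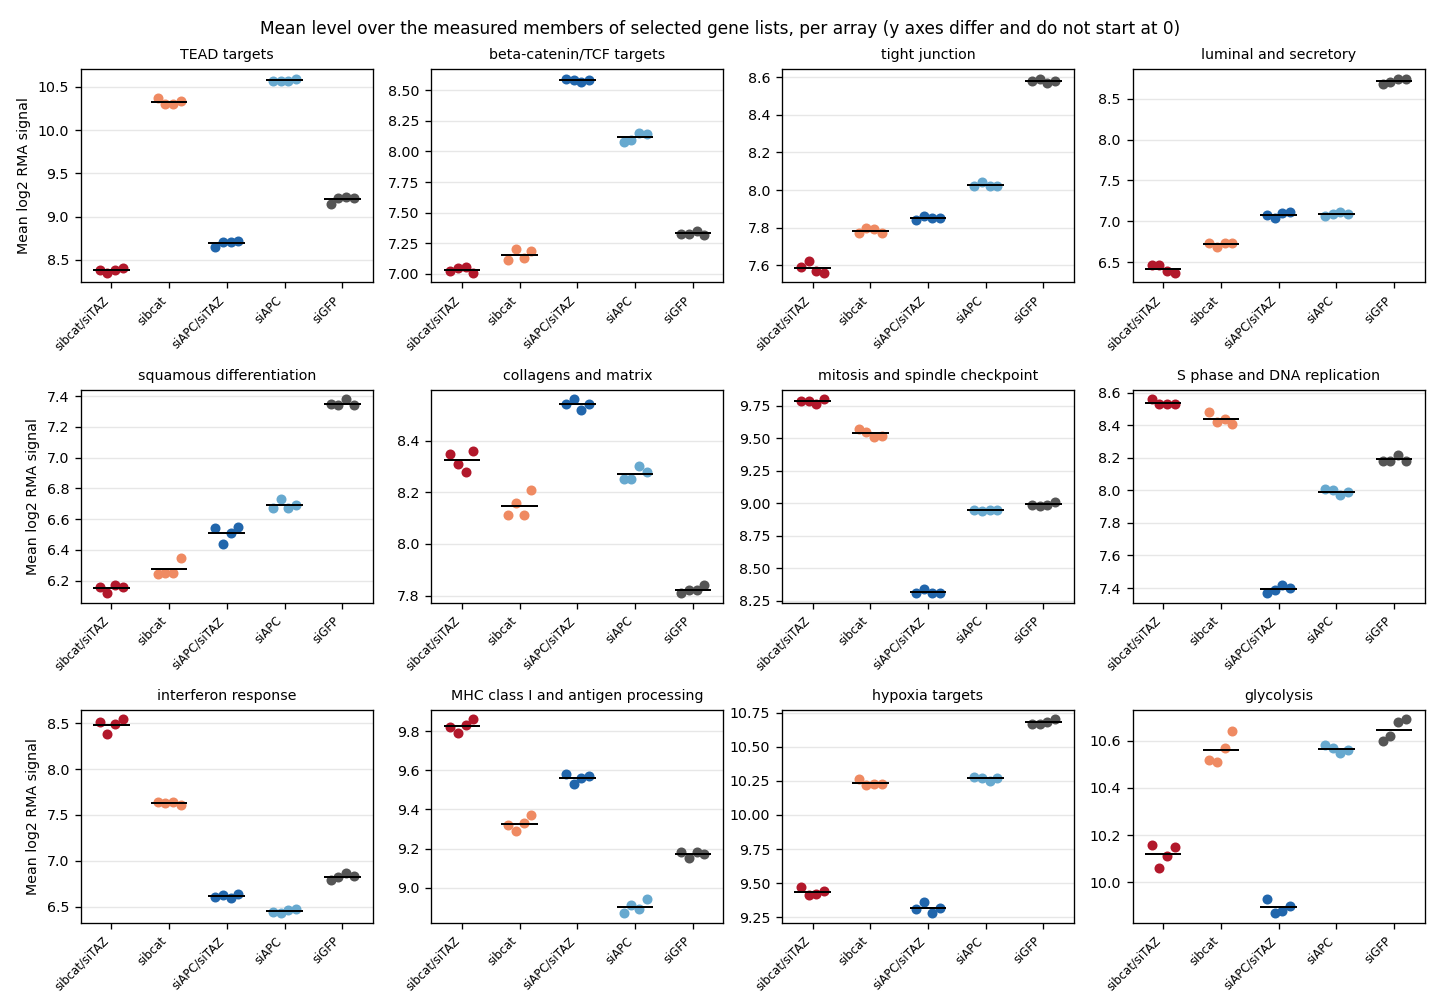
Mean log2 RMA signal over the measured members of 12 lists (y axis, scaled per panel) on each of the 20 arrays, by group (x axis); points are arrays and bars are group means. The sibcat/siTAZ arrays are highest for mitosis (9.79) and interferon genes (8.48) and lowest for TEAD (8.38), tight junction (7.59), luminal (6.42) and squamous (6.15) genes.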

How the data were processed

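RNA of MII cells was labelled as biotinylated cRNA and hybridised to Affymetrix arrays, 1 array per sample, per the labels' protocols. The deposited log2 signals come from RMA by the authors, per the submitters' processing notes, whose version the sources used here do not give. Of 54675 probe sets, 62 controls were left out. Of the probe sets, 41097 had 1 gene symbol, 1801 had several and 11777 were not named here, and the brightest probe set over the 20 arrays stood for each of 19775 genes (10523 genes had several). Limma 3.58.1 in R 4.3.3 fitted group means to all 20 arrays (15 residual and 3.39 prior degrees of freedom), with two-sided tests, Benjamini-Hochberg adjustment over all genes and calls at an adjusted p under 0.05. The fit was tested on simulated data, and the number of arrays limits the precision (median residual SD 0.108 on the log2 scale). The named genes were the siRNA targets and reporters, the 15 largest changes each way against siGFP and the 8 largest against each other group, among called genes whose arrays did not overlap and whose brighter group averaged at least 6, and up to 4 members per list by smallest adjusted p with those called against a list's majority. The 47 lists held 896 entries, of which 817 were measured and the others not analysed here. Members and lists were chosen with earlier results of these data known. Alternatives for the probe set, low values, scaling, prior, samples, threshold and replicates stand in the closing section. Promoter sequences are RefSeq's, on GRCh38.p14, for 250 bases before the start, searched on both strands with overlapping matches counted. The genes whose promoters are printed were picked by hand among named genes that hold the motif. Where a gene had several promoters, the one with the most matches in the printed bases was shown. AMOTL2 has a pair of promoters in that table, and the second was shown by this rule.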

Additional observations from a re-analysis of the deposited data

Results flagged for a closer look

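For the named genes, 31 of 606 groups of 4 arrays held an array that stood apart by Dixon's test at its 95% level, and chance alone flags about 1 in 20 groups. There were 15 in the sibcat/siTAZ group and 16 in the siGFP group, and each is a level on the log2 scale given with the range of the other 3 arrays of its group. On the array of sibcat/siTAZ replicate A, CCN1 read 6.90 (others 6.64 to 6.66), FZD7 7.22 (7.39 to 7.41), WNT7A 5.05 (5.22 to 5.25), LOX 10.40 (10.39 to 10.39), ERBB3 7.66 (7.52 to 7.54) and HEY1 8.43 (8.29 to 8.31). For sibcat/siTAZ replicate B, MX1 read 6.74 (others 7.14 to 7.22) and CLDN1 9.51 (9.62 to 9.63). On the array of sibcat/siTAZ replicate C, ADM read 7.33 (others 7.41 to 7.42) and FABP5 12.21 (12.19 to 12.19). For sibcat/siTAZ replicate D, TWIST1 read 10.91 (others 10.79 to 10.81), COL4A1 10.88 (10.76 to 10.77), FBN1 10.99 (10.92 to 10.93), HLA-F 10.76 (10.63 to 10.65) and SC5D 10.24 (10.21 to 10.21). On the array of siGFP replicate A, PI15 read 5.72 (others 6.03 to 6.08), CRIM1 9.22 (9.19 to 9.19), RBMS3 8.27 (8.33 to 8.34), MSX1 6.36 (6.47 to 6.49), LAMC1 11.55 (11.60 to 11.61) and FABP4 6.67 (6.86 to 6.89). For siGFP replicate B, IFI44L read 7.21 (others 7.37 to 7.40), IFI27 7.48 (7.65 to 7.66), OLR1 3.27 (3.80 to 3.85), THBS2 3.95 (4.01 to 4.02), MTHFD2 11.47 (11.40 to 11.41), DNAJC3 9.78 (9.76 to 9.76) and BCL2L2 8.46 (8.62 to 8.62). On the array of siGFP replicate C, SERPINA3 read 10.99 (others 10.80 to 10.83) and PFKL 7.17 (6.98 to 7.01). For siGFP replicate D, VGLL4 read 8.92 (others 8.81 to 8.82). No explanation of these values was tested.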

How the results depend on the processing

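The counts of genes that differed kept within 1.5 times their values under every alternative run. Against siGFP, 8887 genes became 8412 with the mean of all probe sets of a gene, 6719 of 16788 with probe sets designed to be specific, 8392 and 7615 with a mean level of at least 5 and 6, 8847 with arrays centred on their medians, 8996 with an intensity trend and robust prior, 8576 with only the arrays of these groups, 7346 at an adjusted p under 0.01, and 8461 to 8552 without 1 array. The letters A to D gave no pairing: the median correlation of same-letter residuals was 0.027, sibcat/siTAZ and siGFP arrays of 1 letter ranged from -0.088 to 0.117, and 7 of 20 arrays correlated best with an array of their own letter. With the letter as a replicate block the count was 8936. Of 2326 values of the named genes under alternatives that kept all arrays, 2259 kept direction and call, 52 lost the call, 2 gained it and 13 reversed. With 1 array left out, 2359 of 2424 kept both, 63 lost the call, 2 gained it and none reversed. With the mean of all probe sets the reversed differences were NT5E -0.08, LOX 0.26, PHLDA1 0.47, CENPI 0.01 and SLC2A3 -0.18. With specific probe sets they were VGLL1 0.13, MAP4K4 -0.06, CDH11 -0.01, TAGLN -0.10, CDKN2D -0.34, DNAJB9 0.09, SC5D -0.07 and RBPJ 0.20. Of 752 list medians under alternatives, 622 moved by no more than the spread between sibcat/siTAZ arrays, 123 moved by more and 7 reversed. Of the 123, 110 kept their direction, 13 stood at 0 in one of the settings or crossed it, and 50 moved by over 1.5 times. With genes of a mean level of at least 5, which leaves fewer members, the luminal median was -3.07, the mesenchymal 0.59, the matrix 0.69, the AP-1 -0.49 and that of RNA sensors 0.53, and with a mean level of at least 6 the CDK inhibitor median was -1.22 and the fibroblast marker median 0.73. Those that reversed were as follows: ATF4 genes to -0.00 with the mean of all probe sets and -0.04 with specific ones, fatty acid genes to 0.01, BCL2 family genes to -0.00 and Notch genes to 0.01 with specific probe sets, and endothelial markers to 0.19 with a mean level of at least 6. Without 1 array the BCL2 median ranged from -0.01 to 0.08. The 3' minus middle signal differed by 0.08 for ACTB (adjusted exact permutation p = 0.114) and by 0.08 for GAPDH (adjusted exact permutation p = 0.0571), so neither passed. Leaving out 1 array gave 0.18 to 0.24 for ACTB 3' minus 5' and 0.08 to 0.10 for GAPDH, and without sibcat/siTAZ replicate B, C or D neither passed (adjusted exact permutation p = 0.0571). The scaling alternative was not run for these within-array values, and the cause of the changes above was not tested. Signals below the array medians limit what can be seen: a fall there is compressed, as for CCN2. AXIN2 and ANKRD1 were below the array medians in siGFP as well, so a fall against siGFP had little room to show.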
